A study of Mus musculus with 22 samples.

Results

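The genes described here are those of the collagen chains, the laminin chains and the integrin subunits that were expressed in mpkCCD cells, an immortalised mouse line of the renal cortical collecting duct. They were chosen by symbol, as Col, Lam or Itg followed by the chain designation, with a mean of at least 1 TPM over 22 libraries. TPM, an abundance unit of RNA-seq, is a level per transcript length scaled to a fixed total in each library. Of 86 genes with such symbols among 54514 in the table, 29 passed: 8 of 44 collagen, 7 of 11 laminin and 14 of 31 integrin names. A pair of the integrin names, Itgb1bp1 and Itgb3bp, belong to proteins that are not integrin chains and are treated apart, which leaves 12 integrin chains. The threshold lay between Col27a1, with a mean of 1.04 TPM, and Itgb8, with 0.841 TPM.

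The cells grew on permeable supports. Wild-type (WT) cells, which were not sorted, were sampled without dDAVP (3 libraries) and with dDAVP (3 libraries). dDAVP, or desmopressin, is an agonist of the vasopressin V2 receptor, which raises cAMP in collecting duct principal cells and induces the water channel gene Aqp2. The remaining 16 libraries came from the reporter clones C1, C11, C43 and C50, each of them 1 clone. All of these libraries are from dDAVP-treated cells, and each clone was sorted by GFP signal into negative and positive cells, with 2 libraries of either kind. The series title presents GFP as a readout of the variability of Aqp2 expression between cells. Clone libraries differ from WT libraries in clone, reporter and sorting together, so levels in clones and in WT cells are set side by side and not tested. Nothing in the labels says that replicates came from separate cultures. The p-values therefore measure the spread between these libraries, which may be technical.

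Collagen IV, laminins and integrins form the contact of an epithelium with its basement membrane. Type IV collagen chains assemble as trimers that join into a network: the products of Col4a1 and Col4a2 form the common network, while those of Col4a3, Col4a4 and Col4a5 form a separate one known from the glomerular and parts of the tubular basement membrane, and mutated in Alport syndrome. Laminins are heterotrimers of an alpha, a beta and a gamma chain, for example the product of Lama5 with those of Lamb1 or Lamb2 and Lamc1, or that of Lama3 with that of Lamb3 in anchoring structures of epithelia. Integrins are receptors of an alpha and a beta chain that bind laminins (Itga3, Itga6 and Itga7 products), collagens (Itga1 and Itga2) or proteins with an RGD motif such as fibronectin (Itga5, Itgav, Itgb5 and Itgb6).

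Type IV collagen genes lie in head-to-head pairs, and their promoters are shown because most of the called collagens belong to such pairs. RefSeq gives a start on GRCm38.p6 for 22 of the 29 genes. The windows run from 250 bases before to 50 bases after the start, 5′ to 3′ on the strand of the gene. They lie at chr8:11312777-11313076 on the minus strand for Col4a1, at chr8:11312555-11312854 on the plus strand for Col4a2, at chr1:82586800-82587099 on the minus strand for Col4a4 and at chrX:141475169-141475468 on the plus strand for Col4a5. Capitals mark GC boxes (GGGCGG or, on the other strand, CCGCCC) and CCAAT boxes (CCAAT or ATTGG).
Col4a1: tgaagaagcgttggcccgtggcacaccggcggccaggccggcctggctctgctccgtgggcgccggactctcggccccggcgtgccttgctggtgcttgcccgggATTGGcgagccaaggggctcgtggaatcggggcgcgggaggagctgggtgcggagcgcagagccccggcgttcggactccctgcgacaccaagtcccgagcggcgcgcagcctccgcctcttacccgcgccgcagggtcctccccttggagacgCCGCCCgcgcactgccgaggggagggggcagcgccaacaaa
Col4a2: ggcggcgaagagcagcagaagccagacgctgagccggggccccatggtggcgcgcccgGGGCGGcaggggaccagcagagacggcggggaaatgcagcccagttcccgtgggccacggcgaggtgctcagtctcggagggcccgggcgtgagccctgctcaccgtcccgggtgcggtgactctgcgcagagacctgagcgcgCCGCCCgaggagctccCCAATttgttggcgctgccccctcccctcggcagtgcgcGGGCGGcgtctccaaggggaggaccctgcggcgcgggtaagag
Col4a4: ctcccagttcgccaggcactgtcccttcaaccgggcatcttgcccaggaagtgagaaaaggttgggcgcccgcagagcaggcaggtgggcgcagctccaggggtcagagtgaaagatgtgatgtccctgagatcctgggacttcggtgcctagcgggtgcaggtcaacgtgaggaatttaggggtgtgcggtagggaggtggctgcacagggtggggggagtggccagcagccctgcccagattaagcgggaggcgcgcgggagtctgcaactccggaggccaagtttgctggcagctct
Col4a5: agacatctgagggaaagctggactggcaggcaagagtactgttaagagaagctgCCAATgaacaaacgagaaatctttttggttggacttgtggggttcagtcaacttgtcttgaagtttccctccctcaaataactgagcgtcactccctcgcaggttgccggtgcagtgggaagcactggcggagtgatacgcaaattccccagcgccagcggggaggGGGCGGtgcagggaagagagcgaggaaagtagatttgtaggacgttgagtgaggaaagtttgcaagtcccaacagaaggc
The Col4a1 and Col4a2 starts are 21 bases apart and their windows share 78 bases, so 1 GC box lies in both windows, on opposite strands. The Col4a2 window holds 3 GC boxes and 1 CCAAT box, and the windows of Col4a1 and Col4a5 hold 1 of each. The Col4a4 window holds neither motif. A GC box occurs in 35.6% and a CCAAT box in 37.4% of 32817 mouse windows of the same length. The full cAMP response element TGACGTCA (1.79% of windows) and the TATA box TATAAA (13.6%) matched in none of these windows on either strand. The shorter TGACG (20.8%) matched in Col4a5 alone of these. The Col4a5 start lies 1343 bases from that of Col4a6, its partner on the opposite strand. These matches describe letters in the windows and do not show binding.

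Sequencing depth is unknown, because TPM keep no depth. The number of genes above 0 TPM ran from 17177 to 20250 in 10 libraries and from 23135 to 31292 in the other 12, and 8 of the 10 groups had libraries in both sets. The library from replicate 1 of the GFP-negative fraction of clone C50 stood apart from the rest. Its collagen sum over the 8 collagen genes was 75.6 TPM, against 160 to 264 TPM in the other 7 GFP-negative libraries, and the median of its genes with transcripts of 5000 bases or more lay 0.72 below their mean over libraries on the log2(TPM + 1) scale. The cells carried collecting duct markers: all 10 listed were above 0 in all 22 libraries, with Krt18 at 5507 to 10031 TPM and Cdh16 at 835 to 2018 TPM. Of cells that make much collagen, the defining fibroblast markers Dcn and Lum reached at most 0.53 and 0.17 TPM, and the 10 fibroblast markers together 0.51 to 4.18 TPM. Podocyte Nphs1 reached at most 0.18 TPM, while Podxl was at 5.42 to 27.4 TPM and Synpo at 8.26 to 52.8 TPM. Endothelial Cdh5 reached at most 0.52 TPM and Vwf 3.56 TPM. Of the 6 leukocyte markers Csf1r was at 7.05 to 21.5 TPM and Ptprc at most 1.87 TPM.

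**Figure D1:**
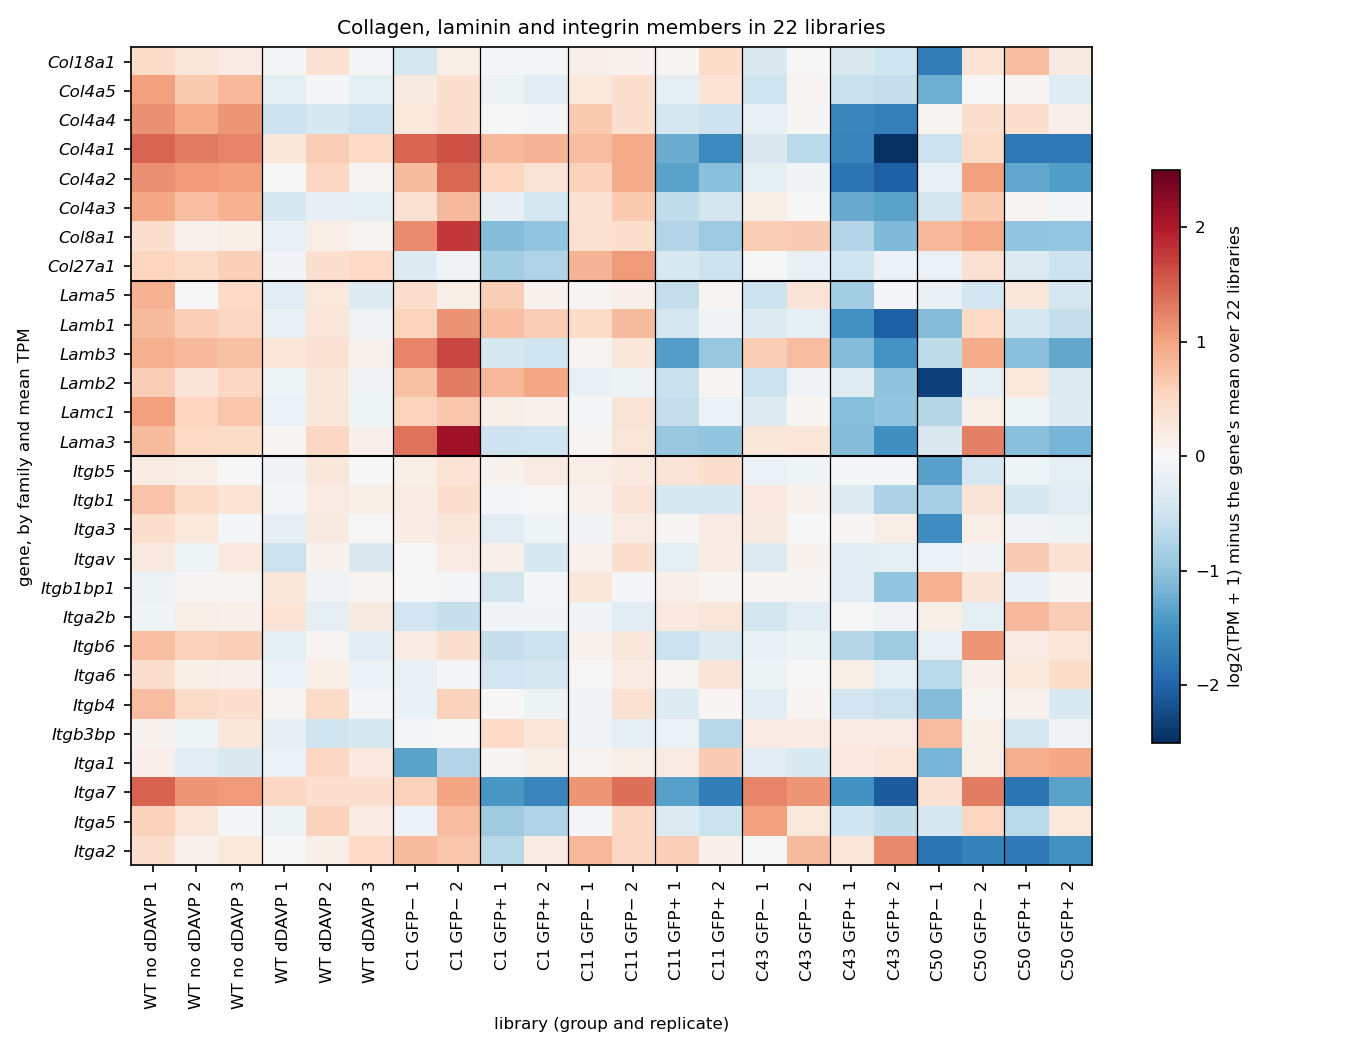
Levels of 28 of the 29 genes (rows, grouped by family and ordered by mean TPM) in the 22 libraries (columns, by group and replicate). Colour gives log2(TPM + 1) minus the mean of the gene over the 22 libraries, red above and blue below; the WT libraries without dDAVP are red over most collagen and laminin rows, and Itga7 is blue in all 8 GFP-positive libraries.

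By level, the integrins came first. Their 14 names summed to 1076 ± 158 TPM (SD, n = 22), the 7 laminin chains to 302 ± 109 TPM and the 8 collagen chains to 219 ± 59.3 TPM. The most abundant chains were Itgb5 (mean 283 TPM), Itgb1 (273 TPM) and Itga3 (216 TPM), so both chains of the laminin receptor made of the Itga3 and Itgb1 products were high. Among laminins Lama5 led with 106 TPM, and among the others were Lamb1 (49.4 TPM), Lamb3 (35.5 TPM), Lamb2 (33.9 TPM) and Lamc1 (16.4 TPM), with Lama3 last at 2.54 TPM. The lowest value of Lamb3 in any library was 9.75 TPM, while Lama3, the alpha chain it pairs with, ranged from 0 to 11.6 TPM. Col18a1, which encodes a basement membrane collagen and the precursor of endostatin, made up most of the collagen sum with 175 TPM. The type IV genes followed: Col4a5 with 16.6 TPM, Col4a4 with 8.87 TPM, Col4a1 with 8.68 TPM, Col4a2 with 4.08 TPM and Col4a3 with 2.31 TPM. Col4a6 was listed at 0 to 0.12 TPM, with a mean of 0.0155 TPM, and is not among the 29. Of the genes of fibrillar collagens, Col27a1, with 1.04 TPM, is among the 29 and Col11a2 had a mean of 0.615 TPM. The major interstitial ones were lower: Col1a1 had a mean of 0.185 TPM, Col1a2 of 0.101 TPM and Col3a1 of 0.0741 TPM.

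The comparison of dDAVP with no dDAVP in WT cells asks how the agonist moved these genes without sorting or cloning. With dDAVP 11 of the 29 genes were lower and 0 were higher (limma on log2(TPM + 1), Benjamini-Hochberg adjusted p under 0.05, two-sided). Of all 13494 genes tested 8.88% were called, 6.51% lower and 2.37% higher. The called genes were 5 of 8 collagens, all of them type IV chains, 4 of 7 laminins and 2 of 12 integrin chains. The median log2 change was -0.86 over the collagens, -0.57 over the laminins and -0.24 over the integrin chains, against -0.16 over all genes tested. In bulk RNA, fewer cells expressing a gene and less of its RNA per cell cannot be told apart.

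Col4a4 had the largest fall. It was at 18.6, 15.8 and 17.9 TPM without dDAVP and at 5.16, 5.65 and 5.09 TPM with it. The groups lay far apart and each kept to a narrow range, with means of 17.4 ± 1.42 and 5.30 ± 0.305 TPM (SD, n = 3 each), a ratio of 3.29. The log2 change was -1.55 ± 0.11 (SE; adjusted p = 0.000639). Its partner in the network and neighbour in the genome, Col4a3, was at 4.93, 4.09 and 4.55 TPM without and at 1.28, 1.63 and 1.57 TPM with dDAVP. Again no library of one group reached the other, and the log2 change was -1.15 ± 0.18 (adjusted p = 0.0134). Exons annotated for Col4a3 share 563 bases with those of C430014B12Rik on the opposite strand, and reads of an unstranded kit cannot be told apart there.

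Col4a5, the third chain of that network, was at 33.0, 25.0 and 28.5 TPM without dDAVP and at 13.0, 15.4 and 13.3 TPM with it. Every treated library was thus below every untreated one, with a ratio of means of 2.08 and a log2 change of -0.997 ± 0.126 (adjusted p = 0.00653). Col4a6, the neighbour of Col4a5, was listed at 0.12, 0.01 and 0 TPM without and at 0, 0.02 and 0.02 TPM with dDAVP, too low to be tested.

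The common chains fell as well. Col4a1 was at 18.6, 16.2 and 15.6 TPM without and at 7.73, 9.97 and 9.05 TPM with dDAVP, a log2 change of -0.85 ± 0.13 (adjusted p = 0.0113). Col4a2 was at 8.01, 7.54 and 7.31 TPM without and at 3.14, 4.87 and 3.28 TPM with dDAVP, a log2 change of -0.87 ± 0.17 (adjusted p = 0.0278). In both genes the groups did not overlap. The sum of the 6 type IV chains went from 75.3 ± 7.43 to 33.4 ± 3.70 TPM. Col4a1 and Col4a2 together made up 31.0% to 34.6% of that sum without and 35.8% to 39.6% with dDAVP, so their share was a little higher in each treated library. The remaining collagens were not called. Col18a1 was at 209 ± 19.1 and 181 ± 31.8 TPM (log2 change -0.22, 95% interval -0.53 to 0.08), Col8a1 at 1.54 ± 0.278 and 1.2 ± 0.271 TPM, and Col27a1 at 1.79 ± 0.115 and 1.35 ± 0.457 TPM.

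**Figure D2:**
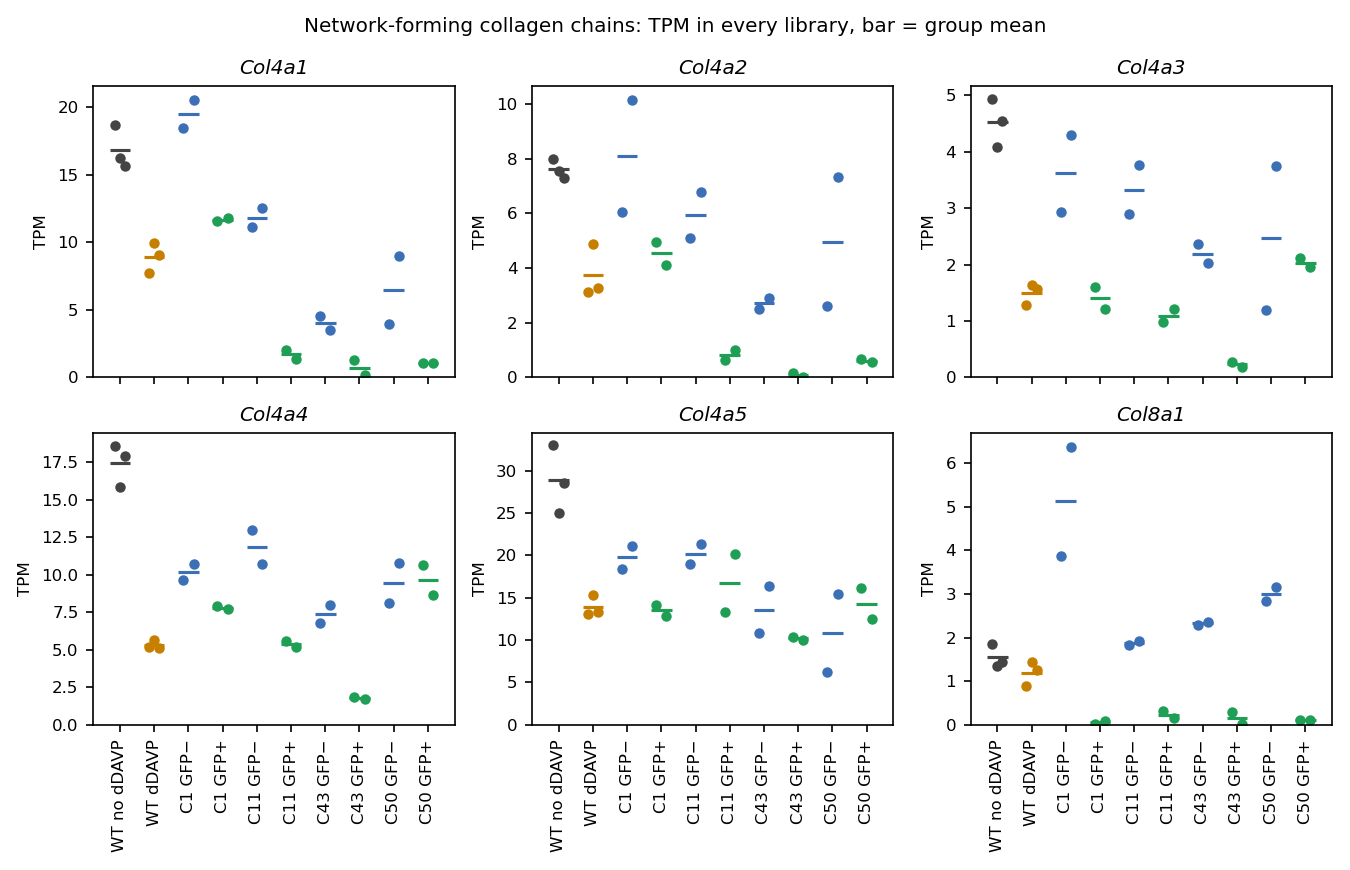
TPM (vertical axes, linear, from 0) of Col4a1 to Col4a5 and of Col8a1 in each library of the 10 groups (horizontal axes); each point is 1 library and each bar the group mean. In the WT panels the 5 type IV genes sit lower in all 3 dDAVP libraries, while Col8a1 overlaps; in the clones Col4a1, Col4a2 and Col8a1 sit lower in both GFP-positive libraries of each clone.

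Among the laminins that fell was Lamb3, which encodes a beta chain of epithelial anchoring structures. It was at 55.1, 51.8 and 49.2 TPM without and at 36.4, 37.9 and 31.4 TPM with dDAVP, a log2 change of -0.55 ± 0.10 (adjusted p = 0.0194). Its groups did not overlap. Lama3, its alpha chain partner, was at 3.34 ± 0.560 and 2.40 ± 0.611 TPM with overlapping libraries and was not called (adjusted p = 0.288). Of the chains that pair with Lama5, Lamc1 changed by -0.74 (adjusted p = 0.0385) and Lamb1 by -0.63 (adjusted p = 0.0381). Lamc1 was at 22.6 to 32.2 TPM without and 13.8 to 18.8 TPM with dDAVP, and Lamb1 at 62.5 to 76.2 and 38.2 to 53.6 TPM. Lamb2 lay lower in all 3 treated libraries as well, at 42.8 ± 4.49 and 31.1 ± 4.89 TPM, but was not called (adjusted p = 0.0716). Lama5 itself was at 145 ± 43.7 and 95.7 ± 23.1 TPM with overlapping libraries (adjusted p = 0.160).

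Of the integrin chains, Itgb6 and Itga7 fell. The product of Itgb6 pairs with that of Itgav and is known for activating latent TGF-beta. It was at 70.7, 62.5 and 63.8 TPM without and at 35.2, 43.9 and 34.6 TPM with dDAVP, a log2 change of -0.78 ± 0.11 (adjusted p = 0.00978). Itga7, the alpha chain of a laminin receptor best known from muscle, was at 18.6, 14.2 and 13.7 TPM and then at 9.12, 8.51 and 8.47 TPM, a log2 change of -0.75 ± 0.14 (adjusted p = 0.0211). The groups of both genes stood apart. Itgb1, the beta chain shared by the laminin and collagen receptors, was also lower in all 3 treated libraries, at 334 to 431 TPM without and 257 to 304 TPM with dDAVP, but was not called (log2 change -0.40, 95% interval -0.66 to -0.13, adjusted p = 0.0668). Itgav, the partner of Itgb6, was at 58.9 ± 7.84 and 45.2 ± 10.8 TPM (adjusted p = 0.178). Itga1 had the highest change of the 29, 0.38 with a 95% interval from -0.10 to 0.86, and was not called. In all, 14 of the 29 genes had no overlap between groups with every treated library lower, and 0 with every treated library higher, against 28.7% and 7.12% of all genes tested.

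Genes that work with these families were tested as well, and their counts are set against the 6.51% of all genes called lower and 2.37% called higher. Of 9 tested genes for other basement membrane components 3 fell with dDAVP and 0 rose. These were Pxdn, the peroxidase that crosslinks collagen IV, from 23.1 ± 4.24 to 11.9 ± 1.62 TPM (log2 change -0.89, adjusted p = 0.0192), Agrn (-0.70) and Tinagl1 (-0.45). Among 18 tested genes for collagen synthesis, folding and secretion 2 fell, Serpinh1, a collagen chaperone, by 0.56, and Colgalt1, a collagen galactosyltransferase, by 0.40 on the log2 scale. Of 10 matrix proteases and inhibitors 2 fell, Timp2 by 0.59 and Adam15 by 0.55. Of 22 integrin adaptors 2 fell, Flna by 0.75 and Tns2 by 0.68, a share near that of all genes. Among 12 further receptors and hemidesmosome genes none was called.

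Of the marker lists, the collecting duct list had 4 genes called higher and 1 lower with dDAVP, and its sum went from between 11719 and 12052 TPM to between 17645 and 18417 TPM, with Aqp2 rising from 69.1 ± 5.43 to 2868 ± 139 TPM. Podocyte Podxl fell from 16.3 to 21.5 TPM to 8.06 to 11.3 TPM (log2 change -0.94, adjusted p = 0.0163), without overlap, while Nphs1 stayed at or below 0.18 TPM and the podocyte sum was 24.6 to 36.7 and 22.9 to 38.1 TPM. The leukocyte sum was 10.7 to 17.7 and 9.93 to 15.6 TPM, the endothelial sum 0.61 to 1.78 and 0.65 to 4.45 TPM and the fibroblast sum 1.77 to 2.01 and 1.21 to 4.18 TPM, and the 1 gene tested of each of these 3 lists was not called. Their part in the WT result was not tested.

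The WT count rests on few libraries. Leaving out 1 library at a time gave 4 to 15 called genes: 4 without dDAVP replicate 3, 5 without replicate 2 or replicate 3 of the untreated group, 6 without untreated replicate 1 or dDAVP replicate 1, and 15 without dDAVP replicate 2. Over all genes these fits called 314 to 460, and 2038 without dDAVP replicate 2. Col4a4, Col4a5 and Itgb6 were among the genes called in all 6 of these fits, and Col4a1 was called in 5. With a replicate block, given at the end, Col4a4 stayed called but Col4a1, Col4a5 and Itgb6 did not. Col4a3 and Itga7 were called in 2 of the 6, and Col4a2, Lamb1, Lamb3 and Lamc1 in 1, that without dDAVP replicate 2. Over all 15 alternatives the calls of Lamb1 and Lamc1 were kept in 5. Long transcripts as a class were lower with dDAVP, with a median log2 change of -0.32 over 2519 genes of 5000 bases or more, 9.01% of which were called lower, and 18 of the 29 genes are of that length. With a correction for transcript length and GC content 11 genes were again called: Lamb3 was lost, Itga1 was called higher (0.74, adjusted p = 0.0123), and the 5 type IV genes stayed lower, from -0.51 for Col4a2 to -1.19 for Col4a4. Over all genes that correction gave 680 higher and 461 lower calls in place of 320 and 878. Median-ratio scaling, which moved the median of all genes from -0.16 to -0.01, gave 9 calls, all lower, without Lamb1 and Lamc1, and 580 higher and 337 lower calls over all genes in place of 320 and 878.

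The comparison of GFP-positive with GFP-negative cells within clones asks how the genes differed between cells that all received dDAVP. Here 17 of 28 genes were called, 15 lower and 2 higher in GFP-positive cells (limma with clone as covariate, 8 libraries per fraction). Over all 13113 genes tested 35.3% were called, 23.2% lower and 12.1% higher, so many genes differ between the fractions. Median-ratio scaling gave 14 lower and 3 higher of the 28, and 2391 higher and 2296 lower calls over all genes in place of 1582 and 3044. The lower genes were 5 of 7 collagens, 5 of 7 laminins, 4 of 12 integrin chains and Itgb1bp1. The 2 higher ones were integrin alpha chains, Itga1 and Itga2b. Col27a1 was below 1 TPM on average in the clones and was not tested. It was at 1.33 ± 0.908 TPM in GFP-negative and 0.362 ± 0.211 TPM in GFP-positive libraries, and it was called with no filter on level and in the libraries with more genes detected. In that set Col27a1 reached a mean of 1 TPM through GFP-negative libraries, highest in C11 at 2.43 and 2.98 TPM. Its GFP-positive values there were 0.13 to 0.46 TPM, so that call is not independent of the filter. The median log2 change was -0.86 over the collagens, -0.48 over the laminins and -0.08 over the integrin chains, against -0.06 over all genes.

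Markers moved between the fractions too. The GFP-positive cells had 7 of the 10 collecting duct markers called higher and 1 called lower, and the sum of the 10 was 13362 to 15332 TPM in GFP-negative and 17537 to 23602 TPM in GFP-positive libraries. Aqp2, whose expression GFP was made to report, is among the 7 and made up much of this difference, at 796 ± 700 and 4156 ± 2009 TPM. The 6 leukocyte markers summed to 11.6 to 22.7 and 8.48 to 14.4 TPM, most of it Csf1r, the 1 tested, which was called lower (log2 change -0.57). The 6 endothelial markers summed to 0.07 to 3.36 and 0.88 to 3.62 TPM, and Vwf, the 1 tested, was called higher (0.84). The 10 fibroblast markers summed to 0.69 to 3.59 and 0.51 to 3.58 TPM, and Tagln, the 1 tested, was called lower (-0.62). Of the podocyte markers Synpo was called higher (1.05) and Podxl was not called. The part of these cell types in the results was not tested.

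**Figure D3:**
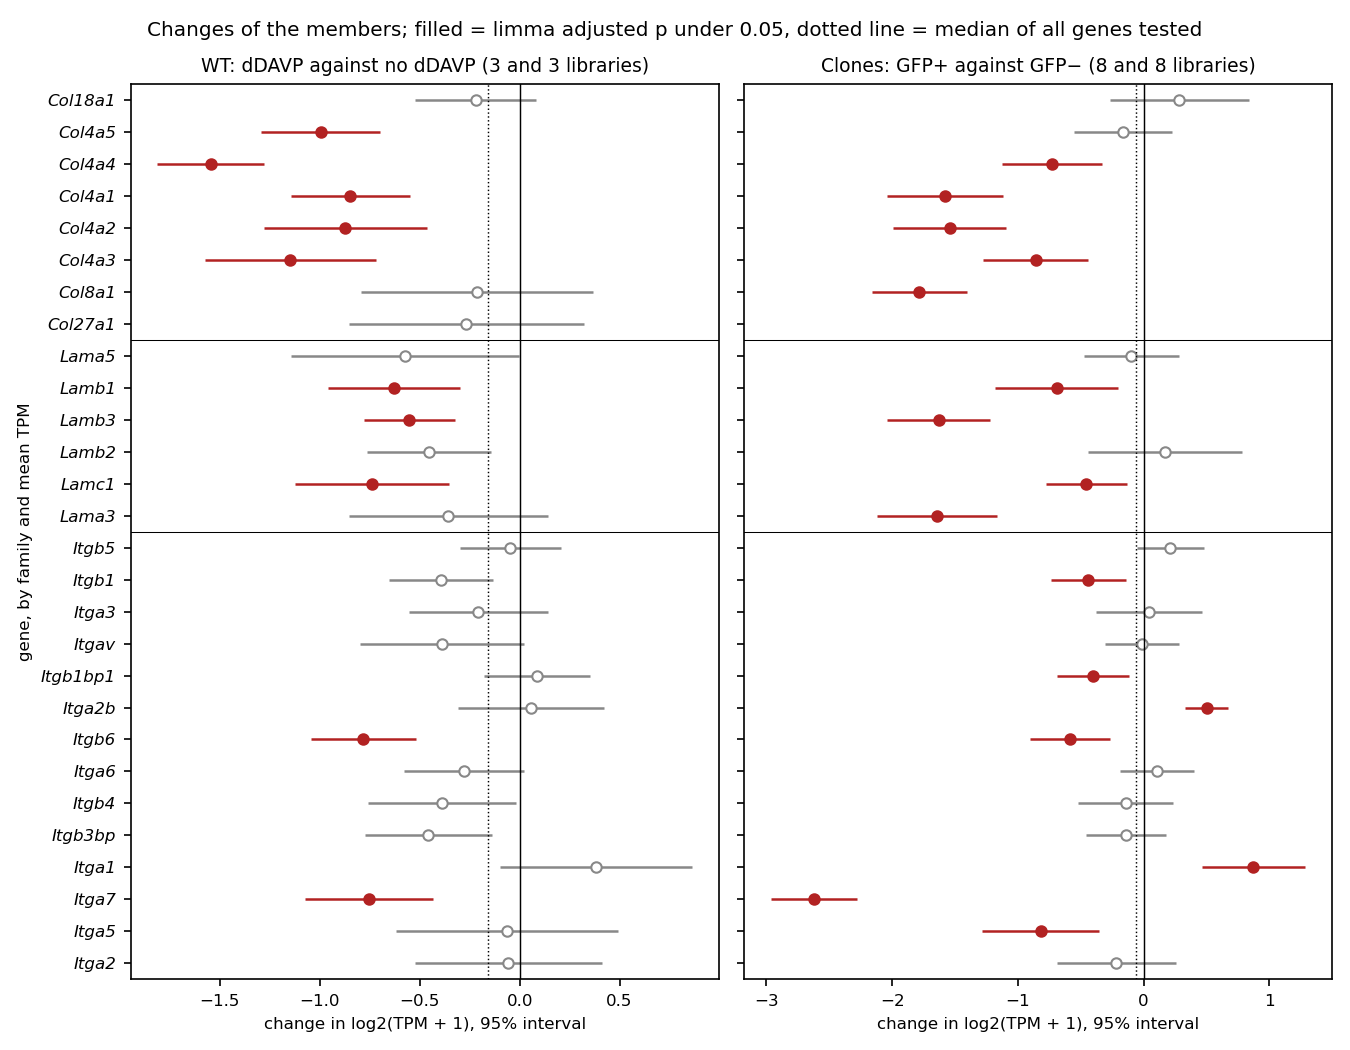
Change of each gene drawn (1 laminin gene is left out) in log2(TPM + 1) with its 95% interval, for dDAVP against no dDAVP in WT cells (left) and GFP-positive against GFP-negative cells over the 4 clones (right); filled points have an adjusted p under 0.05 and the dotted line is the median of all genes tested. On the left the 10 filled points all lie below 0; on the right 14 lie below and 2, Itga1 and Itga2b, above 0, with Itga7 lowest at -2.62.

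On the log2(TPM + 1) scale Itga7 had the largest difference of the 28. With 0.1 in place of 1 added to each TPM, Col8a1 differed more (-3.79 against -3.27 for Itga7). In C1 Itga7 was at 9.49 and 12.9 TPM in GFP-negative and at 1.56 and 1.25 TPM in GFP-positive libraries. The values were 14.2 and 17.2 against 1.74 and 1.12 TPM in C11, 15.5 and 14.1 against 1.46 and 0.67 TPM in C43, and 8.08 and 16.1 against 0.99 and 1.79 TPM in C50. All 8 GFP-negative libraries thus lay above 8 TPM and all 8 GFP-positive libraries below 2 TPM. The log2 change was -2.62 ± 0.16 (adjusted p = 3.83e-08), and the WT libraries, at 8.47 to 18.6 TPM, lay near the GFP-negative range.

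Col4a1 and Col4a2 fell together, but by clone to a different level. Col4a1 was at 18.4 and 20.5 TPM in GFP-negative C1 and still at 11.6 and 11.8 TPM in GFP-positive C1. In C11 it was at 11.1 and 12.5 against 2.01 and 1.38 TPM, in C43 at 4.52 and 3.49 against 1.25 and 0.17 TPM, and in C50 at 3.94 and 8.99 against 1.07 and 1.06 TPM. Both positive libraries lay below both negative ones in each clone, with a log2 change of -1.58 ± 0.22 (adjusted p = 5.75e-05). Col4a2 was at 6.06 and 10.2 against 4.95 and 4.13 TPM in C1, at 5.11 and 6.80 against 0.62 and 1.00 TPM in C11, at 2.5 and 2.92 against 0.16 and 0 TPM in C43, and at 2.61 and 7.32 against 0.66 and 0.56 TPM in C50. It too was lower in both positive libraries of every clone, with a log2 change of -1.54 ± 0.21.

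Col4a4 and Col4a3 of the second network were separated between fractions in 3 of the 4 clones. Col4a4 was at 9.63 and 10.7 against 7.91 and 7.69 TPM in C1, at 13.0 and 10.7 against 5.61 and 5.15 TPM in C11, at 6.77 and 8.01 against 1.82 and 1.71 TPM in C43, and at 8.14 and 10.8 against 10.6 and 8.62 TPM in C50. It was lower in the positive libraries of C1, C11 and C43, while those of C50 overlapped the negative ones, and over the clones the log2 change was -0.73 ± 0.19 (adjusted p = 0.00663). This call was lost without clone C11 and without clone C43. Col4a3 was at 2.94 and 4.30 against 1.61 and 1.22 TPM in C1, at 2.90 and 3.76 against 0.98 and 1.21 TPM in C11, at 2.37 and 2.02 against 0.27 and 0.19 TPM in C43, and at 1.2 and 3.75 against 2.11 and 1.95 TPM in C50. Its order across clones was the same, with a log2 change of -0.86 ± 0.20 (adjusted p = 0.00316).

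Col4a5 was at 18.4 and 21.1 against 14.2 and 12.8 TPM in C1, at 18.9 and 21.3 against 13.3 and 20.1 TPM in C11, at 10.8 and 16.4 against 10.3 and 10.1 TPM in C43, and at 6.17 and 15.5 against 16.1 and 12.5 TPM in C50. The fractions separated in C1 and C43 and overlapped in C11 and C50. The log2 change was -0.17 with a 95% interval from -0.56 to 0.22 (adjusted p = 0.524). Without GFP-negative replicate 1 of C50 it was -0.33 (adjusted p = 0.0214), and without clone C50 it was called as well. Col4a6 was listed at 0 to 0.08 TPM over the 16 clone libraries. The podocyte markers, a cell type known for the second network, summed to 15.3 to 47.9 TPM in GFP-negative and 43.6 to 58.2 TPM in GFP-positive libraries, nearly all of it Podxl and Synpo. Nphs1 was at or near 0 in all libraries.

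Col8a1, a short-chain network collagen, was low in both fractions and fell in all clones. It was at 3.88 and 6.37 against 0.02 and 0.09 TPM in C1, at 1.83 and 1.93 against 0.31 and 0.15 TPM in C11, at 2.30 and 2.35 against 0.30 and 0.01 TPM in C43, and at 2.84 and 3.17 against 0.10 and 0.11 TPM in C50. The positive libraries of every clone lay below 1 TPM and the negative ones above it, with a log2 change of -1.78 ± 0.18. Because 1 is added to each TPM, the changes of such low genes are understated. Col8a1 and Lama3 reached the mean of 1 TPM that the fit required through their GFP-negative libraries, since their means in GFP-positive libraries were 0.136 and 0.504 TPM, so their calls are not independent of that requirement. Both were also called with no filter. Col18a1 overlapped in all clones but C43 and was not called (155 ± 51.4 and 182 ± 54.5 TPM, n = 8 each, 95% interval of the log2 change -0.27 to 0.84).

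**Figure D4:**
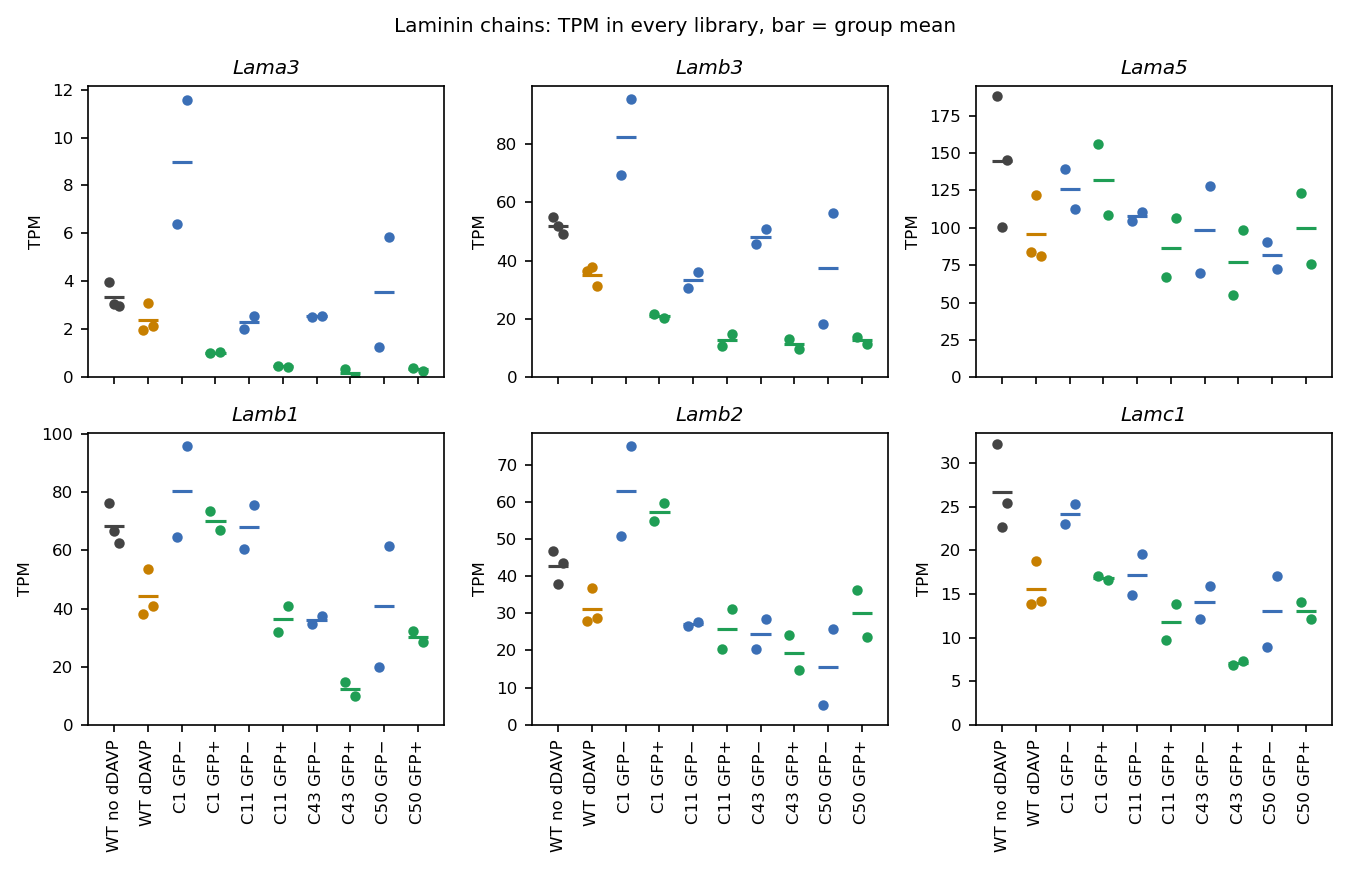
TPM (vertical axes, linear, from 0) of the laminin genes Lama3, Lamb3, Lama5, Lamb1, Lamb2 and Lamc1 in each library of the 10 groups; each point is 1 library and each bar the group mean. Lamb3 and Lama3 sit lower in both GFP-positive libraries of each clone, with Lamb3 at 9.75 to 21.9 TPM there, while Lama5 overlaps between fractions.

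Lama3 and Lamb3, whose products pair, were both called lower. Lamb3 was at 69.5 and 95.5 against 21.9 and 20.4 TPM in C1, at 30.7 and 36.0 against 10.6 and 14.8 TPM in C11, at 45.6 and 50.7 against 13.2 and 9.75 TPM in C43, and at 18.4 and 56.4 against 13.7 and 11.5 TPM in C50. The fractions did not overlap in any clone, and the log2 change was -1.63 ± 0.19 (adjusted p = 1.6e-05). Lama3 was at 6.40 and 11.6 against 1.02 and 1.04 TPM in C1, at 2.01 and 2.57 against 0.49 and 0.45 TPM in C11, at 2.51 and 2.57 against 0.35 and 0 TPM in C43, and at 1.25 and 5.85 against 0.40 and 0.28 TPM in C50. It was likewise separated in every clone, with a log2 change of -1.64 ± 0.22, although its WT groups overlapped. Lama3 exons share 197 bases with those of the antisense gene Gm29200.

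Of the chains of the Lama5 trimers, Lamb1 and Lamc1 were called. Lamb1 was at 20.0 to 96.0 TPM (median 60.9) in GFP-negative and at 9.87 to 73.5 TPM (median 32.0) in GFP-positive libraries, a log2 change of -0.69 (adjusted p = 0.0283). Lamc1 changed by -0.46 (adjusted p = 0.0274). Their calls held in 9 and 10 of the 16 fits without 1 library. Lama5 and Lamb2 were not called, with log2 changes of -0.10 (95% interval -0.47 to 0.28) and 0.17 (-0.44 to 0.78).

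Among integrins, Itga1 and Itga2b rose. Itga1, the alpha chain of a collagen receptor with a preference for collagen IV, was at 3.13 and 5.33 against 9.91 and 10.7 TPM in C1, at 9.92 and 10.5 against 11.1 and 15.3 TPM in C11, at 7.70 and 7.01 against 11.3 and 11.9 TPM in C43, and at 3.70 and 10.6 against 18.5 and 19.4 TPM in C50. Both positive libraries were above both negative ones in each clone, with a log2 change of 0.87 ± 0.19 (adjusted p = 0.00261). The call was lost in each detection set, that is in the clone libraries with fewer and in those with more genes above 0 TPM fitted alone. Annotated exons of Itga1 share 685 bases with Gm49395 on the same strand, so reads there cannot be assigned to either with certainty. Itga2b, best known as the platelet fibrinogen receptor chain, was at 31.9 and 29.6 against 42.6 and 42.8 TPM in C1, at 42.4 and 36.9 against 53.6 and 55.5 TPM in C11, at 32.4 and 36.8 against 44.2 and 42.4 TPM in C43, and at 49.5 and 37.9 against 79.7 and 69.3 TPM in C50. It was separated upwards in every clone, with a log2 change of 0.50 ± 0.08 (adjusted p = 0.000212). Its known partner Itgb3 was at most 1.67 TPM in any library and is not among the 29.

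Lower integrin chains besides Itga7 were Itga5, Itgb6 and Itgb1. Itga5, the fibronectin receptor chain, was at 5.51 ± 2.16 against 2.61 ± 1.03 TPM (n = 8 each, log2 change -0.82, adjusted p = 0.00850). Its call was lost without clone C1 or C43 and in both detection sets of libraries. Itgb6 was at 36.6 to 91.2 TPM (median 46.1) against 22.1 to 51.6 TPM (median 28.4), a log2 change of -0.59 (adjusted p = 0.00645), a call lost without clone C1 or C43. Itgb1 was at 292 ± 62.9 against 211 ± 34.2 TPM, a log2 change of -0.44 (adjusted p = 0.0230). Its call was lost without GFP-negative replicate 1 or GFP-positive replicate 2 of C43, without clone C1, C11 or C43, with no filter and in the libraries with fewer genes detected. Of its alpha partners Itga3, Itga6 and Itgav were not called, with log2 changes of 0.04, 0.11 and -0.01, nor were Itga2, Itgb4 and Itgb5 with -0.22, -0.14 and 0.21. Over the 28 genes, 6 were lower and 2 higher in both positive libraries of all 4 clones. The lower ones were Col4a1, Col4a2, Col8a1, Lama3, Lamb3 and Itga7, and the shares of all genes with such a pattern were 12.2% lower and 6.72% higher. Col8a1, Lama3 and Itga5 have a mean below 5 TPM and are named because they were called, after their values were seen.

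**Figure D5:**
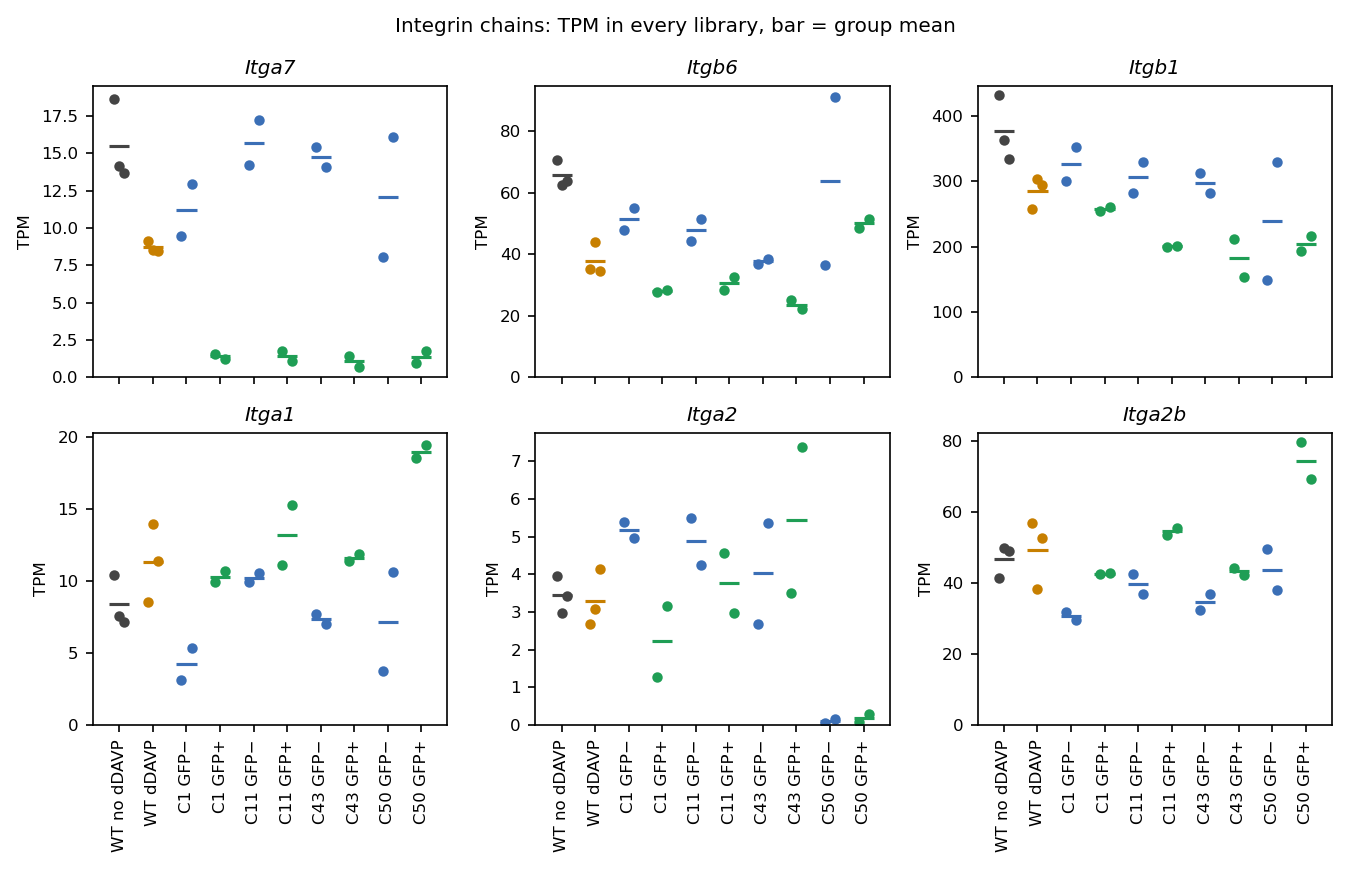
TPM (vertical axes, linear, from 0) of the integrin genes Itga7, Itgb6, Itgb1, Itga1, Itga2 and Itga2b in each library of the 10 groups; each point is 1 library and each bar the group mean. Itga7 lies below 2 TPM in all 8 GFP-positive libraries, Itga1 and Itga2b lie higher in both GFP-positive libraries of each clone, and Itga2 lies at 0.04 to 0.29 TPM in the 4 libraries of clone C50.

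The 2 genes that share the integrin prefix without being chains were both expressed. Itgb1bp1 encodes a protein that binds the cytoplasmic tail of the Itgb1 product. It was at 49.4 ± 3.66 and 52.6 ± 6.89 TPM in the WT groups (n = 3 each) and at 57.7 ± 14.6 against 43.6 ± 9.96 TPM in the fractions, a log2 change of -0.40 (adjusted p = 0.0277). This call was lost in 14 of 31 alternatives, among them the length and GC correction, median-ratio scaling and quantile normalization, and was kept in 11 of the 16 fits without 1 library. Itgb3bp, a centromere protein gene, was at 17.6 ± 2.54 and 12.5 ± 1.41 TPM in the WT groups (adjusted p = 0.0755) and differed by -0.14 between fractions (adjusted p = 0.507). Both genes share exonic bases with protein-coding neighbours on the opposite strand, 402 with Asap2 and 398 with Pgm1.

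More of the surrounding genes were called between fractions than with dDAVP in WT cells, as was so for all genes tested, with 23.2% called lower and 12.1% higher. Of 9 tested basement membrane genes 6 were lower in GFP-positive cells and 0 higher, led by Fn1, fibronectin, from 54.4 ± 24.9 to 5.25 ± 3.97 TPM (log2 change -3.29, adjusted p = 2.12e-08). Tinagl1 changed by -2.38 and Pxdn by -1.45. Among 19 genes of collagen synthesis, folding and secretion 12 were lower and 0 higher, including Bmp1, a procollagen protease, by -2.52, the chaperone Serpinh1 by -1.41 and Pcolce, an enhancer of procollagen processing, by -1.29. Of 11 proteases and inhibitors 4 were lower, among them the inhibitors Timp3 (-2.44), Timp1 (-2.0) and Timp2 (-1.39), and Mmp11 was higher (0.57). Of 22 adaptors 6 were lower, led by Fermt1 (-0.95) and Flna (-0.86), and 2 higher, Parva (0.40) and Lims2 (0.49), which is near those shares. Of 12 other receptors and hemidesmosome genes 2 were lower, one of them the tetraspanin Cd63 (-1.17).

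Within single clones fewer genes passed. In C1 4 of 28 were called, all lower (Col8a1, Itga7, Lama3 and Lamb3), against 7.22% of all genes called, 4.91% lower and 2.31% higher. In C11 the 5 called were Col4a1, Col4a2, Col4a4, Col8a1 and Itga7, all lower, against 7.94% of all genes, 5.7% lower and 2.23% higher. In C43 10 were lower and 0 higher, against 16.3%, 12.0% lower and 4.29% higher: Col4a1 to Col4a4, Col8a1, Lama3, Lamb1, Lamb3, Lamc1 and Itga7. In C50 7 were lower and 3 higher, against 26.6%, 13.8% lower and 12.8% higher, the lower ones being Col4a1, Col4a2, Col8a1, Lama3, Lamb3, Itga7 and Itgb3bp and the higher ones Itga1, Itga2b and Itgb5. Col8a1 and Itga7 were called in each of the 4 clones, but the C11 call of Col8a1 was lost whichever library of C11 was left out. So was the C1 call of Lamb3 whichever library of C1 was left out. The C43 calls of Col4a1, Col4a2, Col4a3, Lama3, Lamb1, Lamb3 and Lamc1 were lost without GFP-positive replicate 2 of C43. Those of Lama3, Lamb3, Itga1, Itgb5 and Itgb3bp in C50 were lost without either of its GFP-positive libraries. Under median-ratio scaling the calls over all genes were more even, with 475 of 993 higher in C1, 482 of 993 in C11 and 1035 of 2075 in C43, and 6, 6 and 10 of the 28 genes were called. Leaving out a library of C1, C11 or C43, or a GFP-positive library of C50, lowered the count within that clone. The count over all genes fell with it each time. Such fits leave 1 library in a fraction. Leaving out either GFP-negative library of C50 raised the counts to 10 in C1, 12 in C11 and 16 in C43. The counts over all genes rose with them, from 947 to 2089 in C1, from 1041 to 2331 in C11 and from 2134 to 3891 in C43 without GFP-negative replicate 1 of C50. Without that library the C50 count was 12 (Itgb3bp and Itgb5 lost, Itgb1, Itgb6 and Lamb1 among those gained), with 3116 of all genes called. Without GFP-negative replicate 2 of C50 the C50 count was 17, of which 11 were higher and 6 lower, and 6820 of all 13066 genes were called, 4611 of them higher.

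The size of the fraction difference depended on the clone for Col4a4 alone among the 28 (F-test of the interaction, adjusted p = 0.0379), against 0.869% of all genes. For C1 the log2 change was -0.34, for C11 -1.0, for C43 -1.60 and for C50 0.03. Without GFP-negative replicate 1 of C50 the C50 change was -0.15. The interaction was no longer called in 14 of the 16 fits without 1 library, and it was kept without either GFP-negative library of C50. Without GFP-negative replicate 2 of C50 the interaction was called for 17 of these genes and for 5038 of all 13066, and without replicate 1 of that group for 1 and for 328 of 13151.

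Clones also differed in level whatever the fraction. The test of clone was passed by 13 of 28 genes, against 28.0% of all genes: 3 of 7 collagens, 6 of 7 laminins and 4 of 12 integrin chains. Col4a1 was highest in C1, at 11.6 to 20.5 TPM over its 4 libraries, and lowest in C43, at 0.17 to 4.52 TPM (adjusted p = 0.000133). Col4a2 and Col4a4 followed with adjusted p = 0.00233 and 0.0137. Of the laminins Lamb1 (adjusted p = 0.00406) and Lamc1 (0.0202) had the smallest p, and Lama5 was the laminin that was not called (0.231). Lamb1 was at 64.6 to 96.0 TPM in C1 and at 9.87 to 37.4 TPM in C43.

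Of the integrin chains Itga2, the alpha chain of the other collagen receptor, had the smallest adjusted p in the test of clone. It was at 0.04, 0.14, 0.07 and 0.29 TPM in the 4 libraries of C50, and at 1.26 to 7.38 TPM in the 12 libraries of the other clones (adjusted p = 0.000182). WT cells had 2.67 to 4.15 TPM. C50 therefore held almost no Itga2 RNA in either fraction, while Itga1 was present there at 3.70 to 19.4 TPM. Itga2b (adjusted p = 0.00232) and Itgb5 (0.0102) were the next integrin chains by this test. Itga2b was at 37.9 to 79.7 TPM in C50, by mean its highest clone in each fraction. In GFP-negative cells that rank rests on replicate 1 of C50, at 49.5 TPM. Replicate 2 was at 37.9 TPM, against 42.4 and 36.9 TPM in C11.

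The make-up of the type IV RNA changed with the clone and fraction. Col4a1 and Col4a2 made up 19.5% to 45.9% of the type IV sum in the GFP-negative libraries. In the GFP-positive libraries the share was 8.25% and 11.7% in C11, 10.2% and 1.40% in C43, and 5.65% and 6.56% in C50, below every GFP-negative library. C1 was the exception, with 41.0% and 42.3% in GFP-positive against 44.1% and 45.9% in GFP-negative libraries. The type IV sum was 22.1 to 66.8 TPM in GFP-negative and 12.1 to 40.2 TPM in GFP-positive libraries. These shares are descriptions without a test.

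The WT comparison and the clone comparison share no library. Of the 29 genes 10 were called in both, each lower in both, among them Col4a1, Col4a2, Col4a3, Col4a4, Lamb1, Lamb3, Lamc1, Itgb6 and Itga7. Of the 12765 genes of any kind tested in both, 5.37% were called in both, 3.14% lower in both and 1.86% higher in both. Col4a5 was called in WT cells alone, with log2 changes of -0.997 there and -0.17 between fractions. Called between fractions alone were Col8a1, Lama3, Itga5, Itgb1, Itgb1bp1, Itga1 and Itga2b. Neither comparison called the other 11, Col18a1, Col27a1, Lama5, Lamb2, Itga2, Itga3, Itga6, Itgav, Itgb3bp, Itgb4 and Itgb5, among them the most abundant chain of each family. Of these Col27a1 was tested in WT cells alone. Whether a change differed in size between the comparisons was not tested.

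The clone result was also looked at within the detection sets. In the set of clone libraries with fewer genes above 0 TPM, 2 of 28 genes were called, both lower, and 250 of all 12776 genes. In the set with more such genes 15 of 29 were called, 14 lower and 1 higher, and 4042 of all 13536 genes. The 2 called in the first set were Itga7 and Col8a1, and the median log2 change over the genes tested of these families was -0.32 there and -0.59 in the other set. No GFP-negative library of C11 was in the first set and none of C1 in the other. The sets therefore compare fractions in different clones. Without GFP-negative replicate 1 of C50 18 genes were called over the clones, the 17 above and Col4a5, and 6043 of all 13151 genes.

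The 57 genes that missed the threshold were 36 collagens, 4 laminins and 17 integrin names, of which 29 had a mean below 0.1 TPM. Their highest value in any library was 2.19 TPM, for Lama4 in GFP-negative replicate 2 of C50. The mean of Lama4 was 0.435 TPM, of Lama2 0.428 TPM and of Lama1 0.0250 TPM, which leaves Lama5 and Lama3 as the alpha chain genes above 1 TPM. The type VI genes Col6a1, Col6a2 and Col6a3 had means of 0.127, 0.0523 and 0.238 TPM.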

How the data were processed

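RNA-seq was analysed from 22 libraries of mpkCCD cells in 10 groups, as the sample labels give them. Per the labels' protocols, cDNA was made with the SMART-Seq HT kit, libraries with Nextera XT, a kit that does not mark strand, and sequencing was paired-end. STAR and RSEM are named in the submitters' processing notes; versions, genome build and annotation are not given in the sources used here. The authors deposited 1 TPM value per gene and library. Lines that share a symbol (980 lines, 79 symbols) were summed. TPM keep no depth, so precision rests on the spread between libraries. The labels name doses and durations of dDAVP without assigning them to libraries, so these were not analysed here.

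limma 3.58.1 (R 4.3.3) was fitted to log2(TPM + 1), taking the genes whose mean reached 1 TPM over the libraries of the fit, with a mean-variance trend, two-sided tests, Benjamini-Hochberg adjustment over all genes tested and calls at an adjusted p under 0.05. The WT fit used 6 libraries and the fraction fit 16, with clone as covariate. Within-clone changes and the F-test of interaction used a mean per clone and fraction. The F-test of clone came from the fraction fit, which has no interaction. The fits were tested on simulated data. Transcript lengths and exon overlaps came from GENCODE M21, promoter windows from RefSeq.

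Named were Col4a3 to Col4a6, up to 5 called rises and falls per family with a mean of at least 5 TPM, up to 3 genes per family for the F-tests and up to 3 rises and falls per partner list, with the partner chains of named genes. The counts cover all genes tested, and 1 laminin gene and 1 marker gene are not reported here by name. The genes, lists and rules were chosen with earlier results of these data known. Alternatives were a pseudocount of 0.1, filters at 5 TPM or above 0, median-ratio scaling, quantile normalization, no trend, genes detected as a covariate, detection sets, a replicate block, leaving out libraries or clones and, chosen after seeing the data, a length and GC correction.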

Additional observations from a re-analysis of the deposited data

Results flagged for a closer look

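Col4a4 differed between the GFP fractions by an amount that depended on the clone, by limma's F-test of the interaction (adjusted p = 0.0379). For C1 the log2 change was -0.34, for C11 -1.0, for C43 -1.60 and for C50 0.03, with the fractions separated in C1, C11 and C43 and overlapping in C50. The call was lost in 14 of the 16 fits without 1 library, with no filter, with quantile normalization and with the length and GC correction. Without GFP-negative replicate 1 of C50, the library with low values for long transcripts, the call was kept.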

How the results depend on the processing

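No gene called in either main comparison changed sign under any alternative. Among genes that were not called, 10 of 18 in the WT fit and 10 of 11 in the clone fit changed sign under at least 1 alternative, Col4a5 among them, whose change between fractions was 0.0017 in the libraries with fewer genes detected. Counts of called genes that moved by more than 1.5 times were, in the WT comparison, 7 with no filter, besides the replicate block and the fits without 1 library given below. With no filter 442 of all 38037 genes were called in WT cells in place of 1198 of 13494. In the clone comparison they were 11 without clone C1, 9 without clone C43 and 2 in the libraries with fewer genes detected, where fewer libraries were fitted. Over all genes these fits called 3794, 3321 and 250 in place of 4626. Within C1 the count was 2 with a filter at 5 TPM and 8 with the length and GC correction, within C11 3 and 8, within C43 6 with a filter at 5 TPM, and within C50 6 with no filter. Over all genes these were 882 and 1432 in place of 947 in C1, and 1021 and 1550 in place of 1041 in C11. They were 2003 in place of 2134 in C43 and 2291 in place of 3486 in C50. The interaction count was 0 with no filter, quantile normalization or the length and GC correction, and the clone count was 7 with no filter. Over all genes the interaction was called for 78, 234 and 278 in place of 114, and clone for 2653 in place of 3669. A filter at 5 TPM tested 22 of the genes in the clones, and other causes were not tested. The length and GC correction gave 18 calls in the clone comparison, 14 lower and 4 higher, and 2608 lower and 2804 higher over all genes in place of 3044 and 1582.

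Leaving out 1 library at a time gave 4 to 15 calls in the WT comparison, 12 to 18 over the clones, 2 to 10 in C1, 3 to 12 in C11, 3 to 16 in C43, 5 to 17 in C50, 7 to 19 for the difference between clones and 0 to 17 for the interaction. Over all genes these fits called 314 to 2038 in the WT comparison, 4170 to 6043 over the clones and 2744 to 5889 for the difference between clones. Where a fraction was left with 1 library, that library was assumed to vary like the others. A replicate block left 2 called in the WT comparison (Col4a4 among them, while Col4a1, Col4a2, Col4a3, Col4a5, Itgb6, Itga7, Lamb1, Lamb3 and Lamc1 were not called) and 16 over the clones, and over all genes 122 in the WT comparison, 98 higher and 24 lower, and 4259 over the clones. In WT cells the replicate numbers gave no sign of pairing. Deviations of same-numbered WT libraries correlated at -0.21, -0.03 and -0.11, and 0 of 6 WT libraries correlated best with its own number. In the clones same-numbered libraries correlated at 0.02 to 0.20. Such weak correlations do not settle whether the libraries were paired.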
